A study of Mus musculus with 8 samples.

Results

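NRF2 is the transcription factor, encoded by Nfe2l2, that switches on antioxidant and detoxifying enzymes, and the genes described here are that factor with its regulators and the glutathione, thioredoxin, NADPH-supplying and metal-binding genes of the same defence. They were taken as a list of 37 gene symbols and matched to array probes through the RefSeq accession of each probe, which gave 52 probes, out of 20145 gene symbols on the array. Of the 37 genes, 35 had a probe bright enough to test, 33 of them well above background on all 8 arrays. The transferase genes Gsta1 and Gsta2 were well above background on 0 and 1 of the 8 arrays and were not tested.

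The study asked which genes respond in the mouse embryo to hydroxyurea, an inhibitor of ribonucleotide reductase that stalls DNA replication and is teratogenic at high dose. Pregnant CD-1 mice on gestational day 9 received 400 mg/kg hydroxyurea or saline by intraperitoneal injection, and whole embryos were explanted 3 h later. RNA of 4 hydroxyurea and 4 saline samples was hybridised to 1-colour Agilent arrays of 55681 probes. GEO's design text mentions 4 experiments, without telling which arrays belong together or how many embryos or litters went into each RNA, so p-values measure the spread between these samples. The embryos were otherwise untreated and no genotype is given.

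In the resting cell, KEAP1 holds NRF2 in the cytoplasm and passes it on for degradation. Oxidants and electrophiles modify KEAP1, so NRF2 builds up, enters the nucleus and binds antioxidant response elements with a small MAF protein. Much of this control acts on the NRF2 protein, which these arrays do not measure. Glutathione, thioredoxin and NADPH are the reducing agents that its target enzymes make or spend.

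A few promoter windows are shown first. They belong to the called members Nfe2l2 and Gclm, to Srxn1, and to the metallothioneins Mt1 and Mt2, which varied together between arrays. The groups of Srxn1 did not overlap. Those of Glrx and Txnip did not overlap either, but the windows of these genes are not shown. Neither Glrx nor Txnip held an antioxidant response element, but Glrx held an AP-1 site. Each window runs from 250 bases before to 50 bases after the start of the gene in RefSeq on GRCm38.p6, and is written 5′ to 3′ on the gene's own strand. In the windows of Nfe2l2 (chr2:75704614-75704913, minus strand), Gclm (chr3:122245307-122245606, plus strand) and Srxn1 (chr2:152105274-152105573, plus strand), capitals mark the antioxidant response element core TGACNNNGC and the AP-1 site TGACTCA, either on the strand shown or as the reverse complement.
Nfe2l2: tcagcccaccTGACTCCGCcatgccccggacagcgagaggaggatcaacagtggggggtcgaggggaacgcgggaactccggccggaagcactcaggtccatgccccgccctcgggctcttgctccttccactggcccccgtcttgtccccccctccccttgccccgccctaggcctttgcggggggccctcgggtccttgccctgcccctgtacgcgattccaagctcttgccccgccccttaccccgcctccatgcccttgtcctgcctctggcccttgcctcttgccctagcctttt
Gclm: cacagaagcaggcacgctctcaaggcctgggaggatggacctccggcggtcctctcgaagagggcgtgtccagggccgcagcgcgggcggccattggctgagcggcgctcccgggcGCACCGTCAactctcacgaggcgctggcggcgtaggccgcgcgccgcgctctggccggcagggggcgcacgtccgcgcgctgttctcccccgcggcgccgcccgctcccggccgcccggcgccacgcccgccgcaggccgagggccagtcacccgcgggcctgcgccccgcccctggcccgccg
Srxn1: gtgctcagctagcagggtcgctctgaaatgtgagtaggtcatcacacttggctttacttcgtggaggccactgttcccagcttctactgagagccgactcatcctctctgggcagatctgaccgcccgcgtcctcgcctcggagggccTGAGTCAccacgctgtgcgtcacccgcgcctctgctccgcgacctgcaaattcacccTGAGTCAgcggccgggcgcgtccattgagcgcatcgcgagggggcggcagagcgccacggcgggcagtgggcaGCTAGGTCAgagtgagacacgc
In the windows of the metallothionein genes Mt1 (chr8:94178839-94179138, plus strand) and Mt2 (chr8:94172368-94172667, plus strand), capitals mark the metal response element core, TGCACNC or TGCGCNC, on either strand.
Mt1: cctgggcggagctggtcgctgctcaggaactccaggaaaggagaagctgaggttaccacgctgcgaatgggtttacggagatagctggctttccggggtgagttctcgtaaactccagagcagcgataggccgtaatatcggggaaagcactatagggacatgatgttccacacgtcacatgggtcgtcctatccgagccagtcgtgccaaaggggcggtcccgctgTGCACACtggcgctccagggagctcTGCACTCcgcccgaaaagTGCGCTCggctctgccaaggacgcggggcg
Mt2: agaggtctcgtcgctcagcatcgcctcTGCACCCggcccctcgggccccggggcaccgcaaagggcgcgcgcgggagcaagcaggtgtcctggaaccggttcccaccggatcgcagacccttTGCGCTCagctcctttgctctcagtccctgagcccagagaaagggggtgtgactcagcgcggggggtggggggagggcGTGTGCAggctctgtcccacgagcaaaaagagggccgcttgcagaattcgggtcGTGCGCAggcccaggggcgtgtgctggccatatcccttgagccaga
The Nfe2l2 window held 1 match to the antioxidant response element, starting 240 bases before the gene start, and the Gclm window held 1, starting 134 bases before it. Srxn1 held 1 such match, starting 28 bases after the gene start. It also held 2 AP-1 sites, starting 102 and 45 bases before the gene start, and none of these overlap. Mt1 held 3 metal response elements, starting 23 bases before and 2 and 20 bases after the gene start. Mt2 held 4, starting 223, 128 and 50 bases before and 4 bases after it. An AP-1 site followed by GC also matches the antioxidant response element, so those motifs can share bases. Matches of Mt2 to the other motifs are not marked.

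The promoter table held windows for 32 of the 37 members, and none for Gclc, Gsr, Gsta4, Hmox1 and Prdx6. The antioxidant response element was found in 11 members, namely G6pdx, Gclm, Gsta3, Me1, Mt2, Nfe2l2, Pgd, Prdx1, Sod1, Srxn1 and Txnrd1. It was in 11 of the members' 41 windows (26.8%), beside 12.4% of all 32851 windows in the table. The AP-1 site was in 6 members, namely Glrx, Gstp1, Me1, Mt2, Prdx1 and Srxn1. It was in 7 of the 41 windows (17.1%, beside 5.2% of all windows). The metal response element was in 11 members and in 13 of the 41 windows (31.7%, beside 25.7%). Counted by gene, these motifs were in 14%, 5.95% and 28.2% of all genes in the table, in that order. The E box CACGTG was in 0 members, and in 7.15% of all windows. Several members were listed because they are known NRF2 targets, so the first of these shares does not stand apart from how the list was made. An AP-1 site followed by GC counts for both motifs, so the AP-1 share is not independent of the first. Mt1 and Mt2, listed as metal-binding genes, are among the members with the metal response element. A match is a description of letters in this window.

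Across the 35 tested members, Nfe2l2 rose, Gclm fell and the other 33 did not pass the test. The plot of member differences with their intervals shows each of them. All differences below are hydroxyurea minus saline on the log2 scale, from limma fitted over 23173 features and adjusted by Benjamini-Hochberg over all of them, and a gene is called where the adjusted p is under 0.05. In that fit 6.15% of all features were called, 2.76% higher and 3.39% lower, and among the 14658 named genes 5.64% were called (3.62% higher and 2.02% lower), so 2 of 35 members is near the background. The members' median difference was 0.10, against 0.10 over the named genes and 0.04 over all features, with 23 members above 0 and 12 below. The members' median was 0.22 with median centring, which also raised that of all features to 0.16, and with 1 array left out it ran from 0.051 (without hydroxyurea 1) to 0.19 (without hydroxyurea 2). Their differences ran from -0.69 (Gclm) to 0.93 (Nqo1), so 0 of 35 exceeded 1 in size. For 25 of the 35 the 95% interval lay within 1 on either side of 0.

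**Figure D1:**
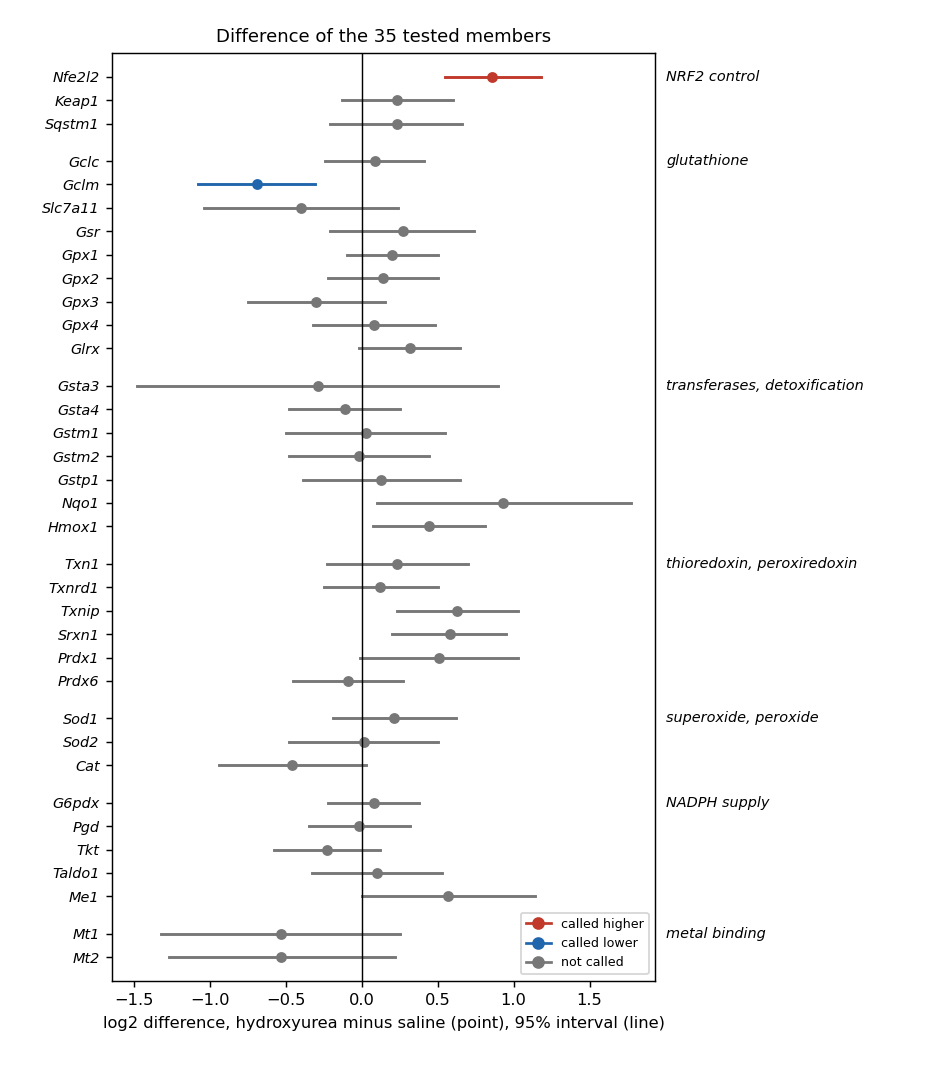
Log2 difference, hydroxyurea minus saline, of the 35 tested members grouped by branch, with 95% intervals from limma (4 arrays per group). Nfe2l2 at 0.86 and Gclm at -0.69 are the called genes, and the interval of Nqo1 (0.93) is among the widest.

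Groups that did not overlap were found in 5 members, 4 with every hydroxyurea array higher (Nfe2l2, Glrx, Txnip and Srxn1) and 1 with every hydroxyurea array lower (Gclm), where 15.5% of all features had such groups (7.85% and 7.63%). An unadjusted p under 0.05 was reached by 7 members, Nfe2l2, Gclm, Txnip, Srxn1, Hmox1, Nqo1 and Me1, where 24.8% of all features reached it. The difference had the same sign on both slides in 30 of the 35. That share was not counted over all features. The medians over the named genes were above 0 on both slides (0.092 on slide 1 and 0.11 on slide 2). The slide-by-treatment interaction reached an unadjusted p under 0.05 in 0 members and in 0.949% of all features, and limma called 0 of 23173 features after adjustment.

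Of the embryo proper markers, 6 of 6 were measured and tested (Sox2, Pax6, Meox1, Tbx6, Tnnt2 and Hoxb4). The primitive erythroid markers were tested for 7 of 7, their mean log2 signal lying between 4.77 and 5.24 in hydroxyurea and between 4.97 and 5.49 in saline. The signal of markers of tissue outside the embryo varied between samples. The mean of 8 yolk sac endoderm markers was 3.52 in saline 2 and between -1.07 and 1.70 in the 7 others. The mean of the 4 tested trophoblast markers, of 7 listed, was 2.11 in hydroxyurea 2 and 2.54 in hydroxyurea 3 and between -1.96 and -0.56 elsewhere, with Prl2c2, Tpbpa and Psg17 not well above background on enough arrays to test. That mean rested on the placental hormone genes Prl3d1 (2.40 and 1.43 in hydroxyurea 2 and 3) and Prl8a2 (2.40 and 6.03). The other tested markers did not follow it: Gcm1 was highest in hydroxyurea 4 (5.14) and saline 4 (5.03) and lay at 3.92 and 2.60 in hydroxyurea 2 and 3, and Plac1 was at -0.27 and 0.079 in hydroxyurea 2 and 3 and at 0.91 and 0.39 in hydroxyurea 1 and 4. White blood cell markers were tested for 2 of 6. Endothelial markers (4 of 4) averaged 0.14 to 0.80 in hydroxyurea and 0.73 to 1.15 in saline. Limma called 0 of the markers of these lists, and an unadjusted p under 0.05 was reached by 1 erythroid (Klf1), 1 white blood cell (Csf1r), 2 endothelial (Cdh5 and Kdr) and 2 embryo proper markers (Sox2 and Pax6). In whole embryos, fewer cells of a type and less RNA per cell cannot be told apart.

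Of the genes that control the pathway, Nfe2l2 rose and the rest of this branch did not pass the test. Nfe2l2 had a log2 signal, relative to the array's 75th percentile, of 3.24, 2.86, 3.04 and 3.12 in hydroxyurea 1 to 4 and of 2.17, 2.13, 2.25 and 2.25 in saline 1 to 4. All hydroxyurea arrays lay above all saline arrays, with a gap wider than the spread inside either group. The difference was 0.86 ± 0.14 (SE, n = 4 and 4; 95% interval 0.55 to 1.18), a 1.82-fold higher signal, with a limma adjusted p of 0.0086. It was 0.90 on slide 1 and 0.83 on slide 2. Leaving out any 1 array left it between 0.81 and 0.93 and called each time. With hydroxyurea 2 and 3, the arrays with high Prl3d1 and Prl8a2 signal, both left out, it was 0.98, with an adjusted p of 0.0086.

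Keap1, the cytoplasmic sensor that holds NRF2, read 2.22, 2.34, 2.31 and 2.40 in hydroxyurea and 2.21, 1.70, 2.27 and 2.15 in saline. The groups overlapped and saline 2 was the lowest array. Its difference was 0.23 (95% interval -0.13 to 0.60, adjusted p = 0.41). Sqstm1, whose protein p62 competes with NRF2 for KEAP1, had a difference of 0.23 (-0.21 to 0.66, adjusted p = 0.5).

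**Figure D2:**
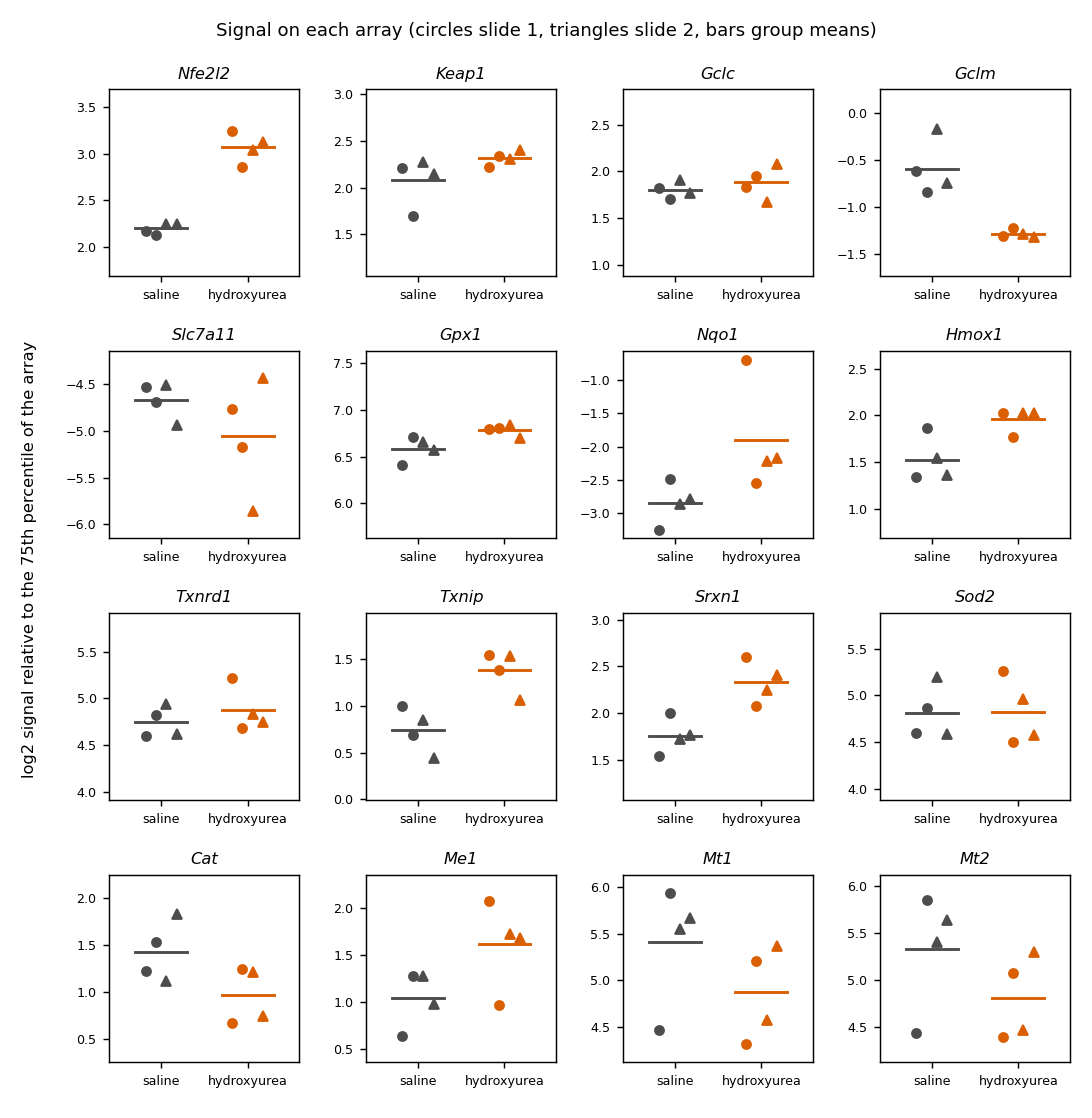
Log2 signal relative to the array's 75th percentile for members named with a value on every array, 1 point per array, hydroxyurea and saline side by side. Every hydroxyurea point lies above every saline point for Nfe2l2, Txnip and Srxn1 and below them for Gclm.

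In glutathione supply and use, Gclm fell and the other 8 members were not called, with a branch median of 0.085. Gclm encodes the modifier subunit of glutamate-cysteine ligase, the enzyme that limits the rate of glutathione synthesis. Its signal was -1.31, -1.23, -1.29 and -1.32 in hydroxyurea and -0.62, -0.84, -0.17 and -0.75 in saline. The hydroxyurea arrays lay close together below all saline arrays, which spread more widely, with saline 3 the highest. The difference was -0.69 ± 0.17 (SE, n = 4 and 4; 95% interval -1.08 to -0.31), so saline was 1.62-fold higher, with a limma adjusted p of 0.045. The direction held on both slides, at -0.54 and -0.85. The call was close to the threshold: with 1 array left out the difference stayed between -0.78 and -0.55, but the adjusted p ran from 0.036 to 0.13 and passed only without hydroxyurea 2. It was also lost with hydroxyurea 2 and 3 both left out (difference -0.72, adjusted p = 0.064), with median centring (0.18), without the filter on dim probes (0.12), with normexp background correction (0.062) and with slide as a block (0.064).

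Gclc, the catalytic subunit of the same ligase, read 1.83, 1.95, 1.67 and 2.08 in hydroxyurea and 1.82, 1.70, 1.91 and 1.77 in saline. The groups overlapped throughout, and the difference was 0.085 (95% interval -0.24 to 0.41, adjusted p = 0.76). Slc7a11, the transporter that brings in cystine for glutathione, was dim, with 2 of 4 arrays in each group well above background. Its signal was -4.77, -5.17, -5.86 and -4.44 in hydroxyurea and -4.53, -4.69, -4.51 and -4.94 in saline. The hydroxyurea arrays spanned both sides of the saline range, and the difference was -0.40 (-1.04 to 0.24, adjusted p = 0.42). It became 0.033 with normexp background correction, and 0.059 with hydroxyurea 2 and 3 left out, so no direction is given.

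The enzymes that use glutathione showed no call. Gpx1, the abundant cytosolic glutathione peroxidase, read 6.79, 6.81, 6.84 and 6.70 in hydroxyurea and 6.41, 6.71, 6.65 and 6.57 in saline. Hydroxyurea 4 lay just under saline 2 and the other hydroxyurea arrays above all saline arrays, for a difference of 0.20 (-0.10 to 0.50, adjusted p = 0.38). Glrx, glutaredoxin, which removes glutathione from protein thiols, lay between 1.49 and 1.76 in hydroxyurea and between 1.01 and 1.39 in saline without overlap, at a difference of 0.32 (-0.016 to 0.65, adjusted p = 0.22). The remaining members had differences of 0.27 for Gsr, which regenerates reduced glutathione, 0.14 for Gpx2, -0.30 for Gpx3, the secreted peroxidase, and 0.083 for Gpx4, which reduces lipid peroxides in membranes. Their adjusted p values were 0.47, 0.64, 0.39 and 0.81.

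Among glutathione transferases and detoxifying enzymes, 0 of 7 tested members were called and the median was 0.026. Nqo1, the NAD(P)H quinone reductase often used as a readout of NRF2, read -0.70, -2.55, -2.21 and -2.17 in hydroxyurea and -3.25, -2.49, -2.86 and -2.78 in saline. Hydroxyurea 1 lay far above every other array, while hydroxyurea 2 fell below saline 2, so the groups overlapped. The difference was 0.93 ± 0.37 (SE; 95% interval 0.10 to 1.77, adjusted p = 0.16), and without hydroxyurea 1 it was 0.53. On slide 1, which held hydroxyurea 1, it was 1.24, and on slide 2 it was 0.63. Hmox1, the heme oxygenase that breaks down heme, read 2.03, 1.77, 2.03 and 2.03 in hydroxyurea and 1.34, 1.86, 1.54 and 1.36 in saline. Hydroxyurea 2 was below saline 2 and the others were above all saline arrays, for a difference of 0.44 ± 0.16 (0.074 to 0.81, adjusted p = 0.14). The second probe of Hmox1 gave 0.47 with an SE of 0.32.

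The transferases, which couple glutathione to electrophiles, had differences near 0. Gsta4 was at -0.11, Gstm1 at 0.026, Gstm2 at -0.021 and Gstp1 at 0.13, with adjusted p between 0.7 and 0.96, and the signs of Gsta4 and Gstm2 turned with median centring. Gsta3, a dim probe, was at -0.29 with an SE of 0.53, and hydroxyurea 3 read -6.10 where the other hydroxyurea arrays read -3.84 to -3.59. The second probe of Gsta3 gave 0.36, and those of Gstm1 and Gstm2 also had the opposite sign, so no direction is given for these. Gsta1 with Gsta2, Gstm1 with Gstm2, and Gstp1 with Gstp2 are close copies, so a probe may read more than the gene it is named for.

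The thioredoxin and peroxiredoxin branch had a median of 0.37, with 5 of 6 members above 0 and 0 called. The 18 other thioredoxin and peroxiredoxin genes had a median of 0.10, with 13 above 0 and 5 below. Over the named genes the median was also 0.10, with 9016 of 14658 above 0. The branch median was 0.21 with the mean of each gene's probes and ran from 0.26 to 0.52 with 1 array left out. Txnip, which binds and inhibits thioredoxin, read 1.54, 1.38, 1.53 and 1.06 in hydroxyurea and 1.0, 0.69, 0.85 and 0.44 in saline. The groups did not overlap, hydroxyurea 4 and saline 1 being neighbours. The difference was 0.63 ± 0.18 (SE; 95% interval 0.23 to 1.03), 1.55-fold, with a limma adjusted p of 0.071, and 4 of 4 hydroxyurea arrays were above saline. Its second probe gave 0.30 with an SE of 0.38, and with normexp correction the adjusted p of the brighter probe was 0.042. With the mean of the Txnip probes it was 0.3, and with 1 array left out it ran from 0.062 to 0.18.

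Srxn1, sulfiredoxin, which repairs over-oxidised peroxiredoxins, read 2.60, 2.08, 2.25 and 2.41 in hydroxyurea and 1.54, 2.0, 1.72 and 1.77 in saline. All hydroxyurea arrays were above all saline arrays, with hydroxyurea 2 the lowest and saline 2 the highest of their groups. The difference was 0.58 ± 0.17 (0.20 to 0.95), 1.49-fold, with an adjusted p of 0.077, and it was 0.57 on slide 1 and 0.58 on slide 2. The adjusted p was 0.031 without hydroxyurea 2, 0.036 without hydroxyurea 2 and 3, and 0.044 with quantile normalization. Under the other alternatives Srxn1 was not called: the adjusted p was 0.11 with median centring and with slide as a block, 0.19 without the filter on dim probes, and up to 0.2 with 1 array left out (without hydroxyurea 4).

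Txnrd1, thioredoxin reductase, read 5.22, 4.68, 4.83 and 4.75 in hydroxyurea and 4.60, 4.82, 4.94 and 4.62 in saline. Hydroxyurea 1 stood above the rest and the other 7 arrays were interleaved, for a difference of 0.12 (-0.25 to 0.50, adjusted p = 0.69). Txn1, thioredoxin itself, was at 0.23 (-0.23 to 0.70, adjusted p = 0.52). Prdx1, a cytosolic peroxiredoxin, was at 0.51 (-0.013 to 1.03, adjusted p = 0.21). The second probe of Prdx1 gave -0.13, and without hydroxyurea 2 the brighter probe gave 0.72 with an adjusted p of 0.027. Prdx6, which has close copies in the genome, was at -0.09 (adjusted p = 0.77) and at 0.028 with median centring.

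Of the enzymes that remove superoxide and hydrogen peroxide, 0 of 3 were called and the median was 0.012. Sod2, the mitochondrial superoxide dismutase, read 5.26, 4.50, 4.96 and 4.58 in hydroxyurea and 4.60, 4.87, 5.20 and 4.59 in saline. The groups were fully interleaved, and the difference was 0.012 (95% interval -0.48 to 0.50). Cat, catalase, read 0.67, 1.25, 1.21 and 0.74 in hydroxyurea and 1.22, 1.53, 1.12 and 1.83 in saline. Hydroxyurea 1 and 4 were below every saline array, and hydroxyurea 2 and 3 lay within the saline range. The difference was -0.46 (-0.94 to 0.025, adjusted p = 0.22), and the second probe gave -0.74 with an SE of 0.43. The mean of the endothelial markers was also lowest in hydroxyurea 1 and 4, at 0.19 and 0.14 against 0.69 to 1.15 elsewhere, and its part in the result was not tested. That order came from Cdh5 and Kdr, while Pecam1 and Tek, with differences of -0.055 and -0.049, were lowest in saline 4. The mean of the 2 tested white blood cell markers was lowest in hydroxyurea 1 and 4 too, at -2.89 and -3.12 against -2.29 to -1.50 elsewhere. There the order came from Csf1r (-1.08 and -1.05 against 0.48 to 2.04), while Adgre1 was lowest in saline 4 (-5.48). The part of the white blood cell markers was not tested either. Sod1, the cytosolic dismutase, was at 0.21 (-0.19 to 0.62, adjusted p = 0.49).

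In NADPH supply, 0 of 5 members were called and the median was 0.081. Me1, malic enzyme, which makes NADPH from malate, read 2.08, 0.97, 1.72 and 1.68 in hydroxyurea and 0.63, 1.28, 1.28 and 0.98 in saline. Hydroxyurea 1, 3 and 4 were above all saline arrays, whereas hydroxyurea 2 was above saline 1 alone. The difference was 0.57 ± 0.25 (0.00039 to 1.14, adjusted p = 0.2), its other probes gave 0.61 and 0.15, and without hydroxyurea 2 it was 0.78 with an adjusted p of 0.039. The pentose phosphate enzymes had differences of 0.081 for G6pdx, the entry enzyme, -0.018 for Pgd (0.10 with median centring), -0.23 for Tkt and 0.10 for Taldo1, with adjusted p between 0.4 and 0.96.

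The metallothioneins Mt1 and Mt2, small cysteine-rich proteins that bind zinc and copper, varied together between arrays and were not called. Mt1 read 4.32, 5.21, 4.58 and 5.37 in hydroxyurea and 4.47, 5.93, 5.55 and 5.67 in saline. Mt2 read 4.39, 5.07, 4.46 and 5.30 in hydroxyurea and 4.43, 5.85, 5.40 and 5.64 in saline. For both genes hydroxyurea 1, hydroxyurea 3 and saline 1 were low and the other 5 arrays high, so each group held low and high arrays. Both differences were -0.53, with 95% intervals of -1.32 to 0.25 and -1.27 to 0.22 and adjusted p of 0.37 and 0.36. With 1 array left out the differences ran from -0.85 (without saline 1) to -0.35 (without hydroxyurea 1) for Mt1 and from -0.83 (without saline 1) to -0.35 (without saline 2) for Mt2, with adjusted p of 0.15 to 0.65 and 0.14 to 0.61. On any array, the deviations of Mt1 and Mt2 from their saline means differed by at most 0.14. Their sequences are close, and a probe may read both. The mean deviation of the yolk sac endoderm markers was lowest in hydroxyurea 3 (-2.45) and saline 1 (-1.78) and highest in saline 2 (2.14). The plot of metallothionein and yolk sac deviations shows these values. Hydroxyurea 1, low for Mt1 and Mt2, was at 0.32, and hydroxyurea 4, high for both genes, was at -1.24. The part of these markers in the result was not tested.

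**Figure D3:**
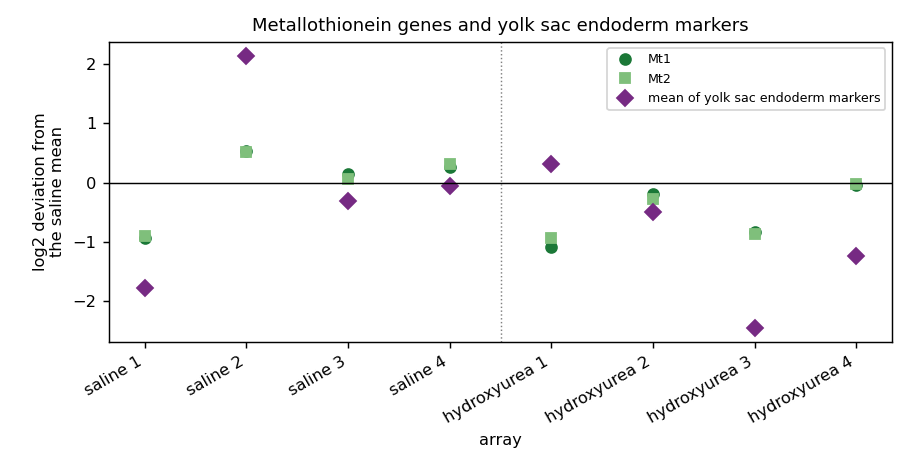
Deviation from the saline mean, on the log2 scale, of Mt1, Mt2 and the mean of 8 yolk sac endoderm markers on each of the 8 arrays. Mt1 and Mt2 stay within 0.14 of each other, both low in hydroxyurea 1, hydroxyurea 3 and saline 1.

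The members also shifted together on single arrays. The median deviation of the 35 members from their saline means was 0.22, -0.16, 0.21 and 0.13 in hydroxyurea 1 to 4 and -0.17, 0.092, 0.11 and -0.084 in saline 1 to 4. Hydroxyurea 2 was thus as low as saline 1, and the other hydroxyurea arrays were above all saline arrays. Over all named genes the same medians were 0.22, -0.061, 0.14 and 0.13 in hydroxyurea and -0.056, 0.023, 0.059 and -0.036 in saline, in a like order. In the thioredoxin branch the median deviation was 0.64, -0.10, 0.51 and 0.26 in hydroxyurea and between -0.17 and 0.12 in saline. The map of member deviations by array shows this pattern, with Nfe2l2 high and Gclm low in hydroxyurea 2 as well. Leaving out hydroxyurea 2 gave 5 called members, Nfe2l2, Srxn1, Prdx1 and Me1 higher and Gclm lower, and 3736 called features instead of 1426. Leaving out each of the 7 other arrays gave Nfe2l2 alone. With hydroxyurea 2 and 3 both left out, Nfe2l2 and Srxn1 were called, both higher, out of 3787 called features.

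**Figure D4:**
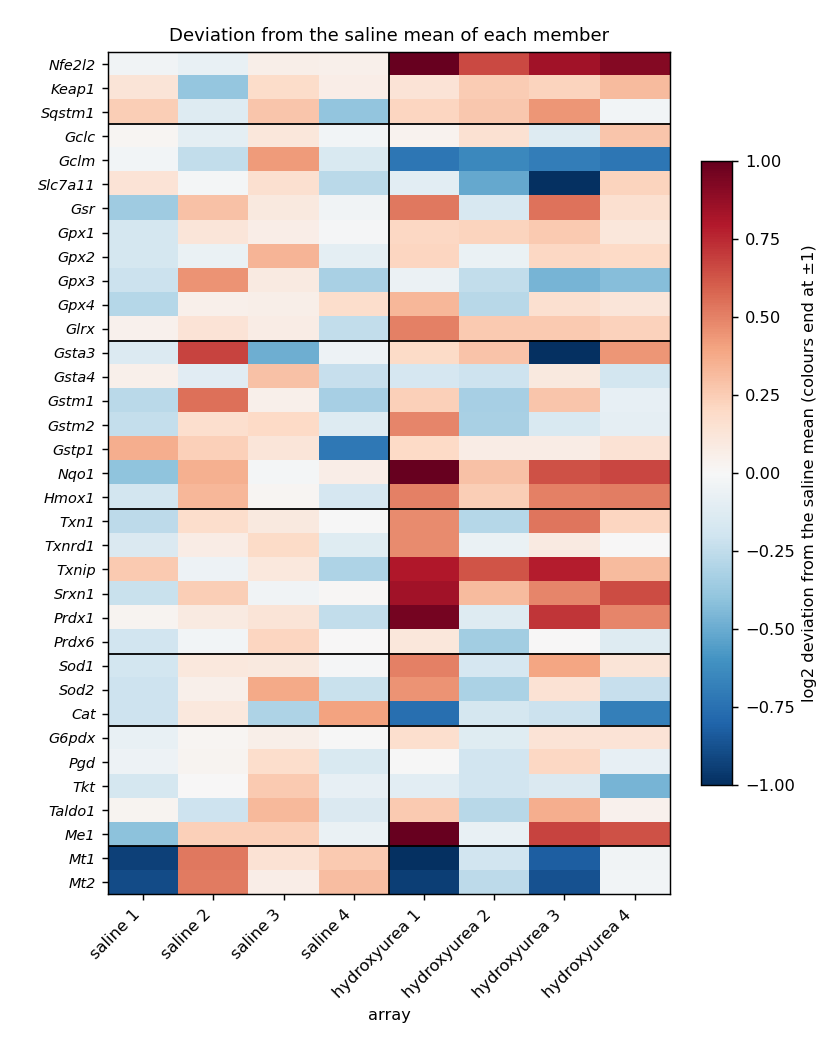
Deviation of each of the 35 tested members from its saline mean, on the log2 scale, in the 8 arrays, with members ordered by branch. Nfe2l2 is high and Gclm low in all 4 hydroxyurea arrays, while many members that are high in hydroxyurea 1 are near or below 0 in hydroxyurea 2.

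The rest of the pathway was read from 117 further genes, of which 116 were on the array and 109 were tested. Of these, 6 rose and 1 fell, against 6.15% of all features called, and their median was 0.10. By list, the calls were 1 lower of 13 NRF2 partners, 1 higher of 21 other glutathione genes, 1 higher of 31 other transferase and detoxification genes, 1 higher of 18 thioredoxin and peroxiredoxin genes, 1 higher of 6 superoxide genes, 2 higher of 14 NADPH genes and 0 of 6 metal genes.

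Chac1, which degrades glutathione and is a target of the amino acid response, read 0.35, -0.31, -0.48 and 0.24 in hydroxyurea and -2.04, -1.67, -1.41 and -1.99 in saline. The groups were far apart, with a difference of 1.73 ± 0.23 (SE; 95% interval 1.20 to 2.26), 3.32-fold, at a limma adjusted p of 0.0044. Sesn2, a sestrin induced by p53 and by amino acid stress, read 3.33, 3.88, 3.40 and 3.74 in hydroxyurea and 1.98, 2.06, 2.25 and 2.03 in saline. It rose by 1.50 ± 0.17, 2.84-fold, at an adjusted p of 0.0017, with no overlap. Aldh1l1, which makes NADPH while oxidising formyl-tetrahydrofolate, read -0.42, -0.51, -0.46 and -0.27 in hydroxyurea and -2.06, -2.10, -1.65 and -2.05 in saline. It rose by 1.55 ± 0.15, 2.92-fold, at an adjusted p of 0.00095. These 3 stayed called whichever single array was left out, and each had a larger difference than any member.

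The other calls were nearer the threshold. Cbr3, a carbonyl reductase, rose by 1.06 ± 0.21 (2.09-fold, adjusted p = 0.021, called in 3 of 8 fits with 1 array left out). Mthfd1, a folate enzyme that also yields NADPH, rose by 0.67 ± 0.16 (adjusted p = 0.041, called in 1 of those 8). Nox4, an NADPH oxidase that makes hydrogen peroxide, rose by 0.88 ± 0.21 (adjusted p = 0.042, called in 2 of 8). Nfe2l3, a transcription factor related to NRF2, fell by 0.69 on the log2 scale (SE 0.15, adjusted p = 0.028, called in 2 of 8), and 2 of its 4 hydroxyurea arrays were well above background. Adjusted p over those 8 fits ran from 0.0054 to 0.073 for Cbr3, 0.025 to 0.12 for Mthfd1, 0.026 to 0.12 for Nox4 and 0.02 to 0.09 for Nfe2l3. Without the filter on dim probes none of these 4 was called (0.065, 0.12, 0.11 and 0.09 in that order). The second probe of Nox4 gave -0.29 and the mean of its probes 0.29 (adjusted p = 0.34), and its call was also lost with normexp (0.064) and with slide as a block (0.064). The call of Mthfd1 was lost with median centring (0.084) and with slide as a block (0.063). Nfe2l3 was at -0.09 with normexp, and its adjusted p was 0.13 with median centring and 0.051 with quantile normalization.

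Of the genes next in each list, Trim21 was at 0.79 (adjusted p = 0.056), Cth, which makes cysteine for glutathione, at 0.49 (0.08), Fth1, ferritin heavy chain, at 0.46 (0.12), and Prdx5 at -0.47 (0.098). Ucp2, a mitochondrial carrier, was at -0.80 (0.053), and the metal transporters Slc30a1 and Atp7a were at 0.38 and 0.30, each with an adjusted p of 0.25. None of these was called. With quantile normalization Cth (0.043) and Ucp2 (0.042) were called, and among probes bright on all 8 arrays Trim21 (0.039) and Ucp2 (0.037). Idh1, next in the NADPH list, was at -1.61 (limma adjusted p = 0.084), and Mgst3, in the detoxification list, at -1.49 (0.17). Their groups overlapped and neither was called. Idh1 read -2.45, 0.13, -1.42 and -2.23 in hydroxyurea 1 to 4 and between -0.045 and 0.22 in saline. Mgst3 read -0.21, 2.80, 2.10 and 0.18 in hydroxyurea 1 to 4 and between 2.45 and 2.91 in saline. Idh1 and Mgst3 had the largest falls among the other pathway genes, and both are named after their values were seen. Ephx1, microsomal epoxide hydrolase, is named after its values were seen, because its probes disagreed: the brighter probe gave -0.44 (adjusted p = 0.22), while its other probe gave 1.40 (adjusted p over all probes = 0.0042). In the authors' deposited table that other probe of Ephx1 differs by 1.39.

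**Figure D5:**
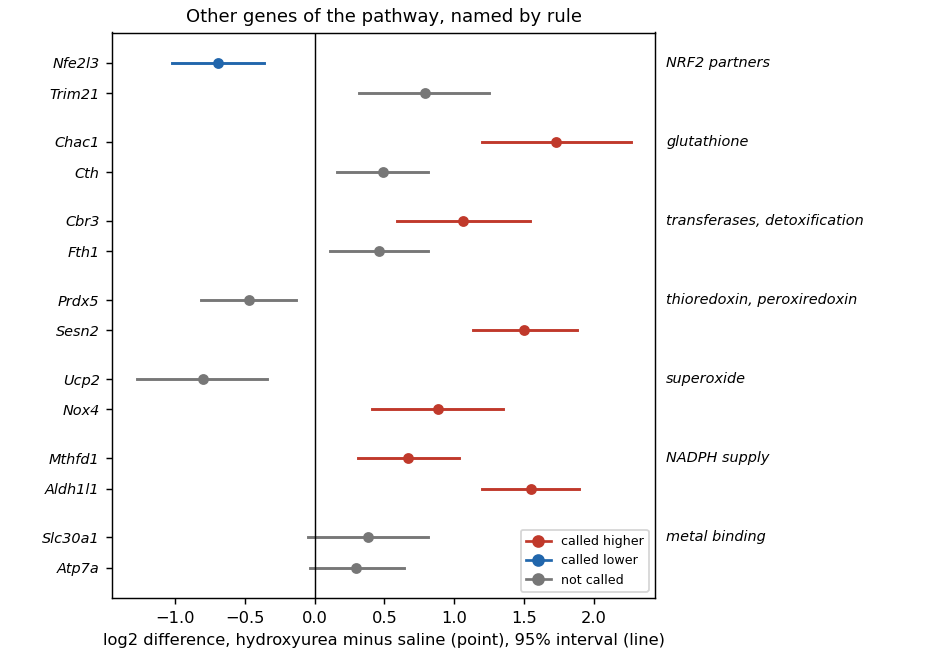
Log2 difference, hydroxyurea minus saline, with 95% intervals from limma, of pathway genes outside the members: those called and, per list, the 2 with the lowest p. Among those shown, Chac1 (1.73), Aldh1l1 (1.55) and Sesn2 (1.50) have the largest differences.

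The authors' deposited table of changed genes lists 1346 probes, among them 2 probes of members. In the authors' deposited table the hydroxyurea mean minus the saline mean was 0.86 for Nfe2l2 and -0.70 for Gclm, on its own log2 scale. It lists 7 probes of the other pathway genes, for Aldh1l1, Cbr3, Chac1, Ephx1, Mthfd1, Nfe2l3 and Sesn2.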

How the data were processed

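RNA of whole gestational day 9 embryos was measured on 4 hydroxyurea and 4 saline arrays, grouped by the labels. Intensity values are the processed Cy3 signals that the authors deposited, made with Agilent Feature Extraction 11.5.1.1 per the file headers and the submitters' processing notes, with background subtracted and no scaling between arrays. The authors' deposited table holds log2 values, and for its normalization and test the sources used here give nothing. Positions of the array design on slide 1 follow mm9 per the file headers, and none was used.

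Each array held 59305 spots, 3671 of them controls, which were left out with 151 to 315 outlier spots per array. No spot was saturated, and between 48.7% and 62.3% of spots were well above background. Spots of a probe were averaged and each array's 75th percentile was subtracted on the log2 scale. A probe was kept if well above background on at least 4 of 8 arrays. A gene with several such probes took the value of the brightest, and the others are given for some genes. The members had 15 such other probes, 9 with the same sign as the brightest and 6 with the opposite sign, and 0 were called. Accessions were named through the RefSeq table of GRCm38.p6. Groups were compared in R 4.3.3 by limma 3.58.1, using lmFit and eBayes with no trend or covariate, two-sided and with Benjamini-Hochberg adjustment over 23173 features. The steps were tested on simulated data. The number of arrays limits the precision.

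The labels do not pair samples, so replicate numbers are only names. Array identifiers place hydroxyurea 1 and 2 with saline 1 and 2 on slide 1, scanned at 3 µm, and the rest on slide 2, scanned at 5 µm. The members and lists were chosen with earlier results of these data known, and 2 cell type markers are not reported here. Values on every array are given for members called or with an unadjusted p under 0.05 and for a fixed set of core members; of other pathway genes the called ones are named, and per list the 2 with the lowest p. Alternatives were other scalings, background correction, filters, probe rules, a slide block, each slide alone and arrays left out.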

Additional observations from a re-analysis of the deposited data

Results flagged for a closer look

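A sample stood apart from the other 3 of its group in 10 of 98 groups of 4 arrays of the genes named by rule, by Dixon's test at 95%. Of these, 6 were among the 70 groups of members. Chance sets apart about 1 in 20 such groups. In hydroxyurea 2, Gpx2 read -0.89 (the others -0.62 to -0.60), Hmox1 1.77 (the others 2.03), G6pdx 3.15 (the others 3.41 to 3.44) and Trim21 -0.76 (the others -0.042 to 0.073). In hydroxyurea 3, Gsta3 read -6.10 (the others -3.84 to -3.59) and Gsta4 2.02 (the others 1.71 to 1.75). In hydroxyurea 1, Glrx read 1.76 (the others 1.49 to 1.52) and Atp7a 2.78 (the others 2.45 to 2.51). Among saline arrays, Atp7a read 2.0 in saline 2 (the others 2.31 to 2.35) and Aldh1l1 -1.65 in saline 3 (the others -2.10 to -2.05).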

How the results depend on the processing

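Nfe2l2 kept its direction and its call under every alternative run except each slide alone, where 0 members were called with 2 arrays per group. The 2 member calls became 1 with median centring, 1 without the filter on dim probes, 1 with slide as a block, 0 on slide 1 alone, 0 on slide 2 alone, and 1 to 5 with 1 array left out. Called features overall were 1426, against 611 without the filter, 56 on slide 1, 3 on slide 2, 3787 with hydroxyurea 2 and 3 left out, and 523 to 3736 with 1 array left out (608, 3736, 979 and 523 without hydroxyurea 1 to 4, and 784, 670, 638 and 766 without saline 1 to 4). The 7 calls among other pathway genes became 3 without the filter, 0 on slide 1, 0 on slide 2, 18 without hydroxyurea 2 and 3, and 3 to 21 with 1 array left out. Each slide alone and each fit with arrays left out had fewer samples. Calls rose without hydroxyurea 2, and without hydroxyurea 2 and 3, and fell in the other fits with fewer samples. The cause of these changes was not tested for any alternative. The higher share of calls was 44.9% and moved to 0% on slide 2 alone, where 3 features were called. Median centring shifted the median of all features from 0.04 to 0.16. The sign turned for some members, listed here. With median centring, Gsta4 was 0.0032, Gstm2 0.10, Prdx6 0.028 and Pgd 0.10. With the mean of a gene's probes, Gsta3 was 0.033, Gstm1 -0.039 and Gstm2 0.12. With normexp, Slc7a11 was 0.033 and Gsta3 0.045, and with quantile normalization Gstm1 was -0.025 and Sod2 -0.02. On slide 1, Gstm1 was -0.18, Gstm2 0.12 and Gstp1 -0.16, and on slide 2 Sod2 was -0.12 and Pgd 0.049. Without hydroxyurea 2 and 3, Slc7a11 was 0.059, Gsta3 0.31 and Gstm2 0.20. With 1 array left out, differences ran from -0.012 to 0.20 for Gpx4, -0.53 to 0.30 for Gsta3, -0.085 to 0.21 for Gstm1, -0.19 to 0.08 for Gstm2, -0.11 to 0.25 for Gstp1, -0.13 to 0.14 for Sod2 and -0.093 to 0.041 for Pgd. Normexp and the fit without hydroxyurea 2 and 3 were chosen after seeing the data. Normexp on mean signals was not run, and median signals were used. No paired analysis was possible because the labels give no shared replicate numbers.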
